A study of Mus musculus with 3 samples.

Results

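Ascorbate transport and recycling genes were followed in developing mouse T cells and in their feeder stroma, treated or not with phospho-ascorbate (pAsc), which is a stable form of vitamin C. The set holds 8 genes of the 27729 on the array. They were taken by gene name alone: Slc23a1, Slc23a2, Slc23a3, Slc2a1, Slc2a3, Gsto1, Glrx and Gulo, which the array covers with 12 probes. RNA was measured on 3 two-colour arrays. On each, RNA of pAsc-treated cells (Cy5) was set against RNA of untreated cells (Cy3). The stromal array compared OP9-DL1 cells given pAsc at 800 µM for 24 h with OP9-DL1 cells in medium alone. OP9-DL1 is a stromal line of bone marrow that carries Dll1, a ligand of Notch, on its surface. Its label gives the cell type as osteoblast and the strain as B6-C3Hf1. The other arrays held T cells grown from C57BL/6 bone marrow progenitors on OP9-DL1 cells with Flt3L and IL7. One compared cells of a 14-day culture, treated for the last 24 h, with untreated cells of the same day. The third compared cells of a 17-day culture, treated for the last 72 h, with untreated cells of that day. Stromal cells had been depleted from the T cells by adherence. Each of the 6 RNA samples was measured once, so no test and no p-value can be given, and a gene was called by size, at 2-fold. On a single array the dye effect of a probe cannot be told apart from treatment.

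Cells take up ascorbate itself through the sodium-coupled carriers Slc23a1 and Slc23a2, whereas its oxidised form, dehydroascorbate, enters through facilitative glucose transporters, among them Slc2a1 and Slc2a3. Inside the cell dehydroascorbate is reduced back to ascorbate with electrons from glutathione, a reaction that the omega-class glutathione transferase Gsto1 and the glutaredoxin Glrx can catalyse. Slc23a3 is related to the carriers in sequence, but ascorbate transport by it is not established. Gulo, L-gulonolactone oxidase, carries out the last step of ascorbate synthesis, which in mice takes place mainly in the liver. Phospho-ascorbate itself has to lose its phosphate to phosphatases before it acts as ascorbate.

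The probes read single stretches of 60 bases of each transcript, and they are shown for the genes on which the results below turn. Positions are those the array files give on mm9. The Slc2a1 probe lies at chr4:118809864-118809923 on the plus strand. For Slc2a3 the files list 3 probes that did not read alike. The brightest lies at chr6:122678075-122678134 and a second at chr6:122687773-122687832, 9698 bases away, both on the minus strand. The files place the other one on another chromosome, at chr17:83853065-83853125. The 2 Gulo probes lie at chr14:66605830-66605889 and chr14:66607040-66607099, on the minus strand. The Slc23a2 probe is at chr2:131878512-131878571 (minus strand) and the Glrx probe at chr13:75986983-75987042 (plus strand). Whether a probe lies in a coding exon or a UTR was not analysed here. The sequences, as the files give them, are as follows.
Slc2a1: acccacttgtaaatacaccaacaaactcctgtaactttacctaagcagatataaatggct
Slc2a3 brightest probe: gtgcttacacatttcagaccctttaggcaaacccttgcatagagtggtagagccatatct
Slc2a3 second chromosome 6 probe: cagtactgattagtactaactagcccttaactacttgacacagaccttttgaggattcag
Slc2a3 chromosome 17 probe: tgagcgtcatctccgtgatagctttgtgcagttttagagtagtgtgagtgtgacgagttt
Gulo brighter probe: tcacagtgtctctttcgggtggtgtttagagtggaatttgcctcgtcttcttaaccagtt
Gulo dimmer probe: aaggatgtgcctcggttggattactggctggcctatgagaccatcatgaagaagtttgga
Slc23a2: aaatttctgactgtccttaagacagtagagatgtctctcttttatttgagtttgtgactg
Glrx: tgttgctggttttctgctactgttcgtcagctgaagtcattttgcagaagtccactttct

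Of the 12 probes, 6 were well above background in all 6 channels and 2 in none. The genes with a probe above background in every channel were Slc23a2, Slc23a3, Slc2a1, Slc2a3, Gsto1 and Glrx. Slc23a1 was above background in the 4 T cell channels by 1 of its probes, and both Gulo probes in 5 channels, all but untreated stroma. Only the brightest of the Slc2a3 probes was above background throughout. The one on chromosome 17 was above background in 1 channel and the second one on chromosome 6 in 0.

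Levels and ratios below are on the log2 scale. A gene is read by its brightest probe, and it counts as measured where that probe was well above background in each channel compared. Probes that were not above background had a median level of 6.08 to 6.14, depending on the channel, so a level near 6 carries no signal. The log2 SD between repeated spots of a probe was 0.0864 to 0.0954, and that between different probes of a gene 0.143 to 0.178. Neither includes variation between cultures. The labelled identities were checked by marker lists. All 15 T lineage markers were above background in both T cell samples of day 17 and 14 of 15 at day 14, where Thy1 was not. In each OP9-DL1 channel 4 of 15 were, and Cd3d, Cd3g, Ptcra, Rag1, Rag2, Tcf7, Bcl11b, Cd2, Il7r and Thy1 were above background in neither channel. Of 7 osteoblast markers, 6 were above background in OP9-DL1 cells and Ibsp was not. In treated T cells of day 17 it was 6 as well, and in the other T cell samples 5, so this count does not set OP9-DL1 cells apart. All 15 stromal markers were above background in every T cell sample too. Their summed level was 230131 in treated and 127431 in untreated T cells of day 14, 508910 in treated and 319737 in untreated T cells of day 17, and 661399 in treated and 479114 in untreated OP9-DL1 cells. Such sums weigh the brightest genes most, and after loess the brightest of all measured genes leaned towards the treated channel. At a mean log2 brightness of 16 to 17 their median log2 ratio was 0.52 on the stromal array. On the T cell arrays it was 0.58 (day 14) and 0.31 (day 17). The part of this lean in the treated sums was not tested. The 15 stromal markers had a median log2 ratio of 0.74 in T cells at 24 h, with 15 of 15 above 0. At 72 h it was 0.52, with 13 of 15 above 0. At 72 h 3 of 5 measured myeloid and mast cell markers were at least 2-fold lower with pAsc (median -1.27), as were 2 of 5 B lineage markers (median -0.21), and at 24 h none of either list was. The part of RNA from such cells or from stroma in the T cell values below was not tested.

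**Figure D1:**
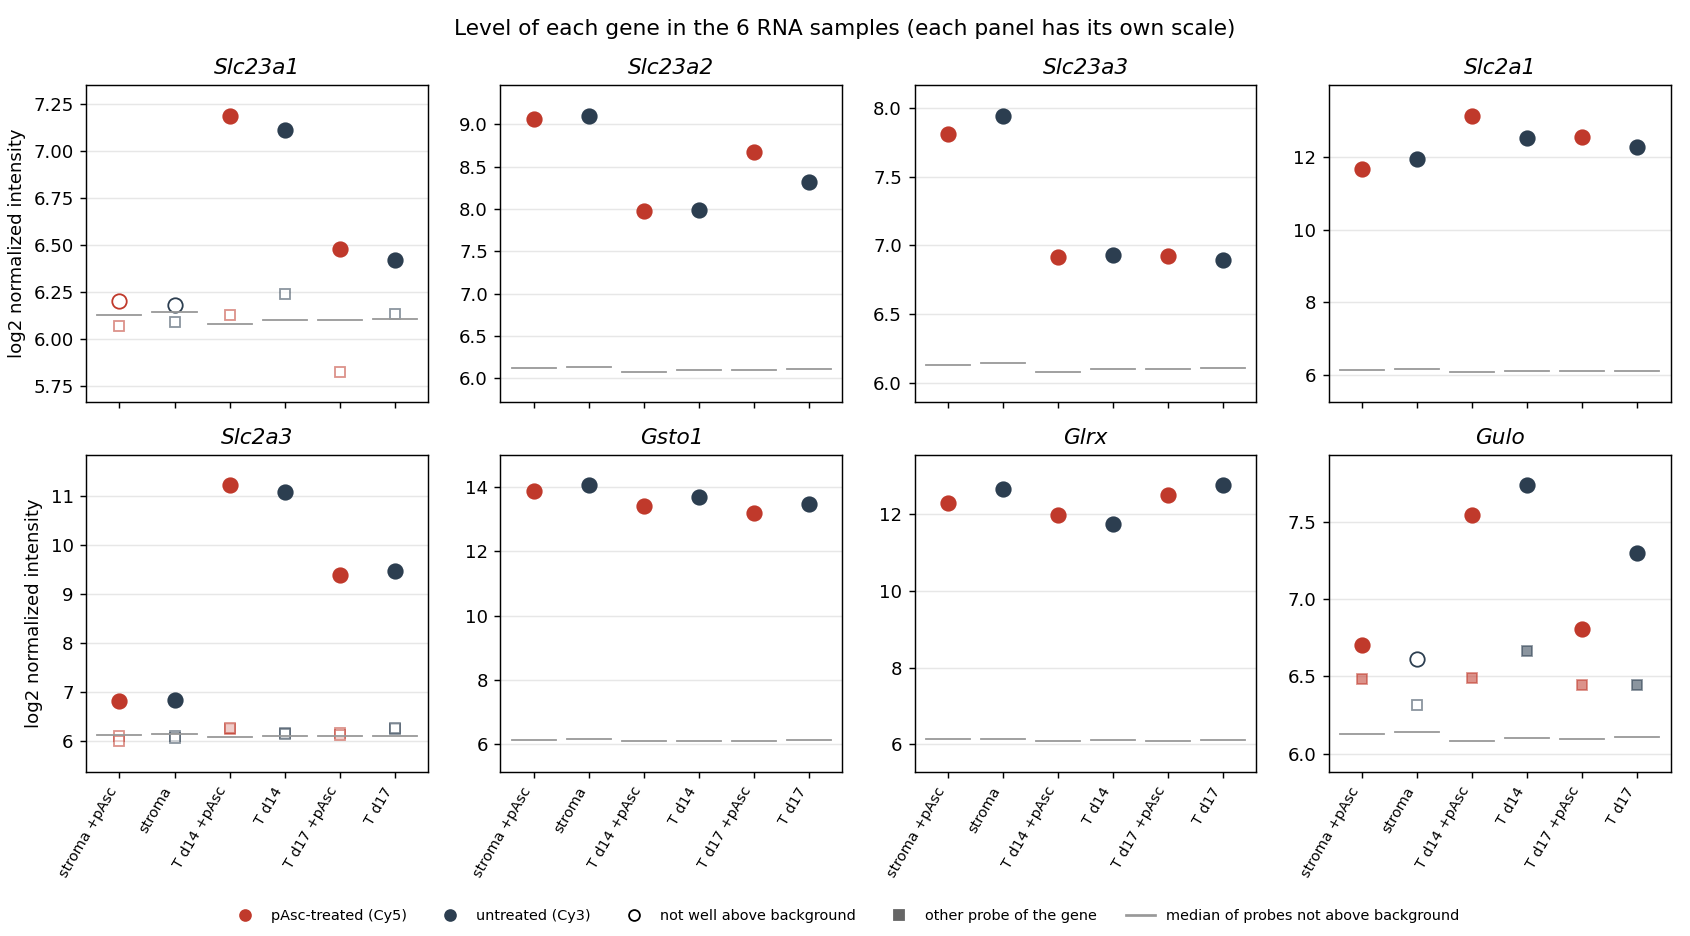
Log2 normalized intensity of the 8 genes in the 6 RNA samples, with pAsc-treated cells in red left of untreated cells in dark blue for stroma, T cells of day 14 and T cells of day 17. Large circles are the brightest probe of a gene, small squares its other probes, open symbols probes not well above background, and grey lines the median of probes not above background. Slc2a3 spans the widest range, from 6.81 in treated stroma to 11.21 in treated T cells of day 14.

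pAsc moved none of the 8 genes by 2-fold on any array. In stroma 0 of 6 measured genes passed, where 0.551% of 14346 measured genes did in either direction. In T cells it was 0 of 8 at 24 h, against 0.324% of 16971 genes, and 0 of 8 at 72 h, against 0.608% of 16282. At these background rates a count of 0 among so few genes sets them apart from no other gene. In stroma all 6 measured genes lay below 0, with a median log2 ratio of -0.15, where the median of all genes was 0.02 and 53.4% lay above 0. This common sign depended on the scaling. With each array centred on the median of all probes instead of loess, 5 of the 6 lay above 0, from 0.16 for Slc23a3 to 0.95 for Gsto1, and the median of all measured genes was 0.64. With centring on measured genes Gsto1 alone lay above 0, at 0.30. The median of the 8 genes was 0.04 in T cells after 24 h and -0.020 after 72 h, with 4 genes above and 4 below 0 each time. The largest value on any array was that of Slc2a1 in T cells at 24 h, and the lowest was that of Gulo at 72 h.

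**Figure D2:**
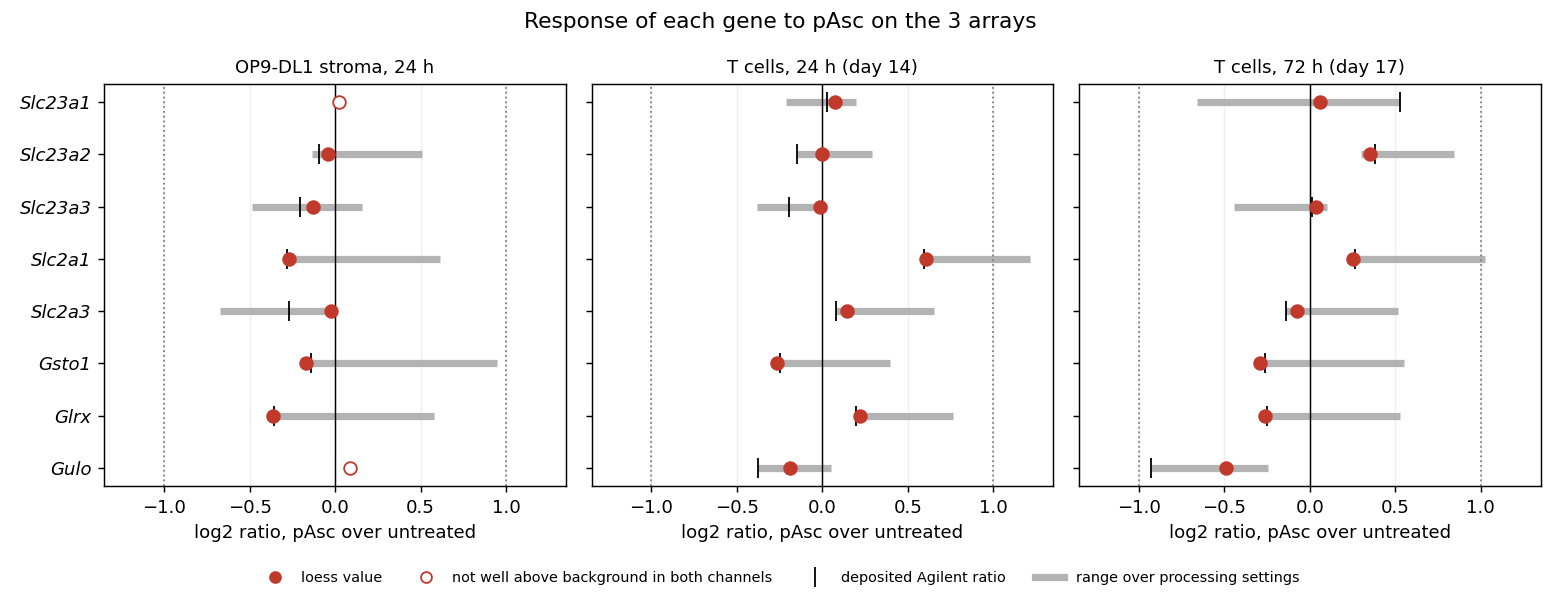
Log2 ratio of pAsc-treated over untreated cells for each of the 8 genes on the 3 arrays. Circles are loess-normalized values, open where a gene was not above background in both channels, ticks are the ratios deposited by the authors, and grey bars span all processing settings; dotted lines mark 2-fold. Slc2a1 in T cells at 24 h stands at 0.61, and its bar reaches past 2-fold.

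Among the ascorbate carriers, Slc23a2 was the one with a clear signal in all samples, and its level was highest in stroma. It stood at 9.06 in treated and 9.10 in untreated OP9-DL1 cells, at 7.98 in treated and 7.99 in untreated T cells of day 14, and at 8.67 in treated and 8.32 in untreated T cells of day 17. The treated and untreated values thus lay together in stroma and at day 14 and apart at day 17. The log2 ratio was -0.040 in stroma, -0.0025 in T cells after 24 h and 0.35 after 72 h, and the ratios deposited by the authors were -0.093, -0.15 and 0.38. The 72 h value, 1.28-fold, was exceeded by 8.41% of measured genes. The response at 72 h was higher than that at 24 h by 0.35, a difference exceeded by 3.84% of genes, and this was not tested. Stromal RNA held more Slc23a2 than T cell RNA. The summed level of stromal markers was 230131 in treated and 127431 in untreated T cells of day 14, and 508910 in treated and 319737 in untreated T cells of day 17. The treated sums are open to the lean of the brightest genes given above. The part of stromal RNA in the Slc23a2 values was not tested.

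Untreated OP9-DL1 cells held 2.17-fold more Slc23a2 than untreated T cells of day 14 (log2 difference 1.12), and were higher by 0.78 than those of day 17. Among untreated T cells, day 17 was above day 14 by 0.34 on the log2 scale. In the order of its 6 levels the neighbours that lay within 0.178 of each other, the widest SD between probes of a gene, were the 2 stromal samples and the 2 T cell samples of day 14.

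Slc23a3 was dimmer, and its level separated stroma from T cells. It stood at 7.81 in treated and 7.95 in untreated stroma, 6.91 in treated and 6.93 in untreated T cells of day 14, and 6.93 in treated and 6.89 in untreated T cells of day 17. All 4 T cell values lay within 0.04 of each other. The log2 ratio was -0.13 in stroma and, in T cells, -0.014 after 24 h and 0.036 after 72 h. Untreated stroma was 2.03-fold above untreated T cells of day 14 and 2.08-fold above those of day 17.

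Slc23a1, the carrier best known from intestine and kidney, had signal in T cells only. It stood at 7.19 in treated and 7.11 in untreated T cells of day 14, and at 6.48 in treated and 6.42 in untreated T cells of day 17. In stroma, where it was not above background, its spots read 6.20 in treated and 6.18 in untreated cells. Treated and untreated values lay within 0.08 of each other on each array, with log2 ratios of 0.08 in T cells after 24 h and 0.06 after 72 h, where the deposited ratios were 0.025 and 0.53. Untreated stroma was at least 1.88-fold lower than untreated T cells of day 14 and at least 1.16-fold lower than those of day 17. Between the T cell cultures, treated cells of day 17 were lower than those of day 14 by a log2 difference of -0.71 and untreated cells by -0.69. These differences passed 2-fold with an offset of 0, at -1.28 and -1.36, and with Agilent processed signals, at -2.13 and -2.65. The second probe was not above background in any channel, so this rests on 1 dim probe.

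Slc2a1, the widely expressed glucose transporter GLUT1, gave the highest response of the 8 genes. In T cells of day 14 it stood at 13.15 in treated and 12.54 in untreated cells, and at day 17 at 12.55 in treated and 12.29 in untreated cells. In stroma it stood at 11.68 in treated and 11.95 in untreated cells. After loess, treated T cells were thus above untreated ones at both times and treated stroma below untreated stroma. The mean spot signal in T cells of day 14 was 14299 in the treated and 3490 in the untreated channel, over local backgrounds of 54 and 21, before dye normalization. The log2 ratio was 0.61 at 24 h (1.52-fold), exceeded by 2.89% of measured genes, 0.25 at 72 h, exceeded by 14.9%, and -0.27 in stroma, where 15.8% of genes were lower. The deposited ratios were 0.60, 0.27 and -0.28. With centring on all probes Slc2a1 passed 2-fold in T cells, at 1.21 and 1.03, and turned to 0.61 in stroma. That setting moved the median of all measured genes to 0.41, 0.54 and 0.64, and relative to those medians Slc2a1 stayed under 2-fold in T cells. With centring on measured genes it was 0.80 at 24 h, 0.48 at 72 h and -0.029 in stroma, so the T cell values kept their sign in both settings and the stromal value did not. Untreated stroma was lower in Slc2a1 than untreated T cells by a log2 difference of -0.60 at day 14 and -0.35 at day 17. With Agilent processed signals these differences were -0.044 and 0.23, so the order at day 17 depends on the scaling.

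The response of Slc2a1 in stroma was lower than in T cells at 24 h by a log2 difference of -0.87, with 2.29% of genes further down. That is the widest difference between 2 arrays in the set. Between 72 h and 24 h the T cell responses differed by -0.35. Neither difference can be tested. For differences between stroma and T cells at 24 h, 0 of 6 measured genes reached 2-fold, where 1.75% of all genes did, and for 72 h against 24 h it was 0 of 8, where 0.553% did.

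Slc2a3, the glucose transporter GLUT3, varied most between cultures and little with pAsc. It stood at 6.81 in treated and 6.83 in untreated stroma. In T cells of day 14 it stood at 11.21 in treated and 11.07 in untreated cells, and in those of day 17 at 9.39 in treated and 9.46 in untreated cells. Each culture formed a pair of its own, and no pair overlapped another. The mean spot signal in stroma was 103 in the treated and 47.3 in the untreated channel, over local backgrounds of 63.5 and 27.5. At day 14 it was 3829 in the treated and 1361 in the untreated channel. Stroma was thus close to background, although the spots passed the test of the scanner software.

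The log2 ratios of Slc2a3 under pAsc were -0.025 in stroma, 0.15 in T cells after 24 h and -0.08 after 72 h. The deposited ratios were -0.27, 0.08 and -0.14. Untreated stroma was 18.8-fold lower than untreated T cells of day 14 (log2 difference -4.23) and 6.19-fold lower than those of day 17 (-2.63). Since the stromal spot was close to background, the size of the fold depends on the background correction. It was 34.4-fold and 10.7-fold with an offset of 0, and 40.9-fold and 13.6-fold with Agilent processed signals. Among T cells, day 17 was below day 14 by 3.54-fold in treated cells (-1.82) and by 3.04-fold in untreated cells (-1.60). The summed level of stromal markers was higher in T cells of day 17 than in those of day 14 (508910 and 230131 in treated cells, 319737 and 127431 in untreated cells). That of T lineage markers was 171143 in treated cells of day 17 and 166493 in those of day 14, and 194217 and 164445 in untreated ones. The part of these shifts in the level of Slc2a3 was not tested. Whether fewer cells of a type or less RNA per cell lies behind such a value cannot be told apart in these bulk samples. The range of Slc2a3 over the 6 samples, 4.40, was wider than that of 98.7% of the 13595 genes measured in all of them, whose median range was 1.06. The other 2 probes of the gene read 5.99 to 6.26 in every channel and did not show this pattern. The median over its 3 probes put untreated day 17 at 0.085 above day 14.

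Gsto1, the dehydroascorbate reductase of the omega class of glutathione transferases, was lower with pAsc on all 3 arrays after loess, without reaching 2-fold. This did not hold on all arrays with median centring in place of loess. After loess Gsto1 stood at 13.89 in treated and 14.06 in untreated stroma. In T cells of day 14 it stood at 13.42 in treated and 13.69 in untreated cells. At day 17 it stood at 13.19 in treated and 13.48 in untreated T cells. Treated cells were below untreated ones in each pair. The log2 ratios were -0.17, -0.27 and -0.29, close to the deposited -0.14, -0.25 and -0.26. In T cells at 24 h 4.64% of genes were lower than the loess ratio of Gsto1 and at 72 h 9.62%. The log2 ratios of Gsto1 kept their sign under other background corrections. With an offset of 0 they were -0.18 in stroma, -0.29 at 24 h and -0.31 at 72 h. With plain background subtraction the log2 ratios were -0.18, -0.30 and -0.31. The sign turned with median centring on all probes, to 0.95 in stroma, 0.40 at 24 h and 0.55 at 72 h. Under that setting the median of all measured genes was 0.64, 0.41 and 0.54. With centring on measured genes Gsto1 stood at 0.30 in stroma, -0.015 at 24 h and 0.0097 at 72 h. The treated RNA carried the same dye on every array, so dye and treatment cannot be told apart here. Untreated stroma was higher by 0.38 than untreated T cells of day 14 and by 0.58 than those of day 17. With Agilent processed signals these differences were 1.14 and 1.37, past 2-fold.

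Glrx, the glutaredoxin that also removes glutathione from proteins, had log2 ratios of different sign on the 3 arrays. It stood at 12.30 in treated and 12.66 in untreated stroma, at 11.97 in treated and 11.75 in untreated T cells of day 14, and at 12.49 in treated and 12.75 in untreated T cells of day 17. After loess, treated cells were above untreated ones at 24 h in T cells and below them in stroma and at 72 h. The log2 ratio was -0.36 in stroma, where 9.88% of genes were lower, 0.22 in T cells at 24 h, exceeded by 16.5%, and -0.26 at 72 h, where 11.9% were lower. The deposited ratios were -0.36, 0.19 and -0.25. Centring on all probes turned the stromal and 72 h values to 0.58 and 0.53, where the median of all measured genes was 0.64 and 0.54. Centring on measured genes put the 2 values at -0.062 and -0.016, so their sign depends on the scaling. The 72 h response was below the 24 h response by a log2 difference of -0.48, with 4.49% of genes further down, and the stromal response below that of T cells at 24 h by -0.58, with 7.73% further down. A dye effect that is the same on all arrays cancels in these differences, which were not tested.

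The level of Glrx differed more between cultures than with pAsc. Untreated T cells of day 17 were above those of day 14 by 1.00 on the log2 scale, unrounded just inside the 2-fold limit and therefore not called. In treated T cells day 17 was above day 14 by 0.52. Untreated stroma was higher by 0.91 than untreated T cells of day 14 and differed by -0.09 from those of day 17. With Agilent processed signals these differences were 1.48, past 2-fold, and 0.52. Stromal markers were higher at day 17 than at day 14 as well, and their part was not tested.

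Gulo, the enzyme of ascorbate synthesis, gave dim signal above background in both channels of both T cell arrays, by both probes. The brighter probe stood at 7.55 in treated and 7.74 in untreated T cells of day 14, and at 6.81 in treated and 7.30 in untreated T cells of day 17. In stroma it read 6.70 in treated and 6.62 in untreated cells, the untreated spot not above background. The treated value was thus below the untreated one in both T cell cultures. Its mean spot signal at day 17 was 154 in the treated and 92.7 in the untreated channel, over local backgrounds of 60 and 17. The log2 ratio was -0.19 at 24 h and -0.49 at 72 h, with 3.16% of measured genes lower at 72 h, and the deposited ratios were -0.38 and -0.93. The dimmer probe gave -0.17 at 24 h and 0.00095 at 72 h, so the 72 h value rests on 1 of the probes. By the brighter probe the treated stromal spot was at least 1.06-fold above the untreated one. That log2 difference, 0.086, is smaller than the SD between repeated dim spots on that array, 0.12. By the same probe untreated stroma was at least 2.17-fold lower than untreated T cells of day 14 and at least 1.60-fold lower than those of day 17. The dimmer probe read 6.31 in untreated stroma, not above background. It read 6.66 in untreated T cells of day 14 and 6.44 in those of day 17, so these bounds do not hold by both probes. Between the T cell cultures, day 17 was lower than day 14 by the brighter probe, by a log2 difference of -0.74 in treated and -0.44 in untreated cells. With an offset of 0 these were -1.10 and -0.61, and with Agilent processed signals -1.48 and -0.95, so treated cells passed 2-fold under both. The dimmer probe read 6.49 at day 14 and 6.44 at day 17 in treated cells, and 6.66 and 6.44 in untreated ones. The size of the drop thus rests on 1 of the probes.

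**Figure D3:**
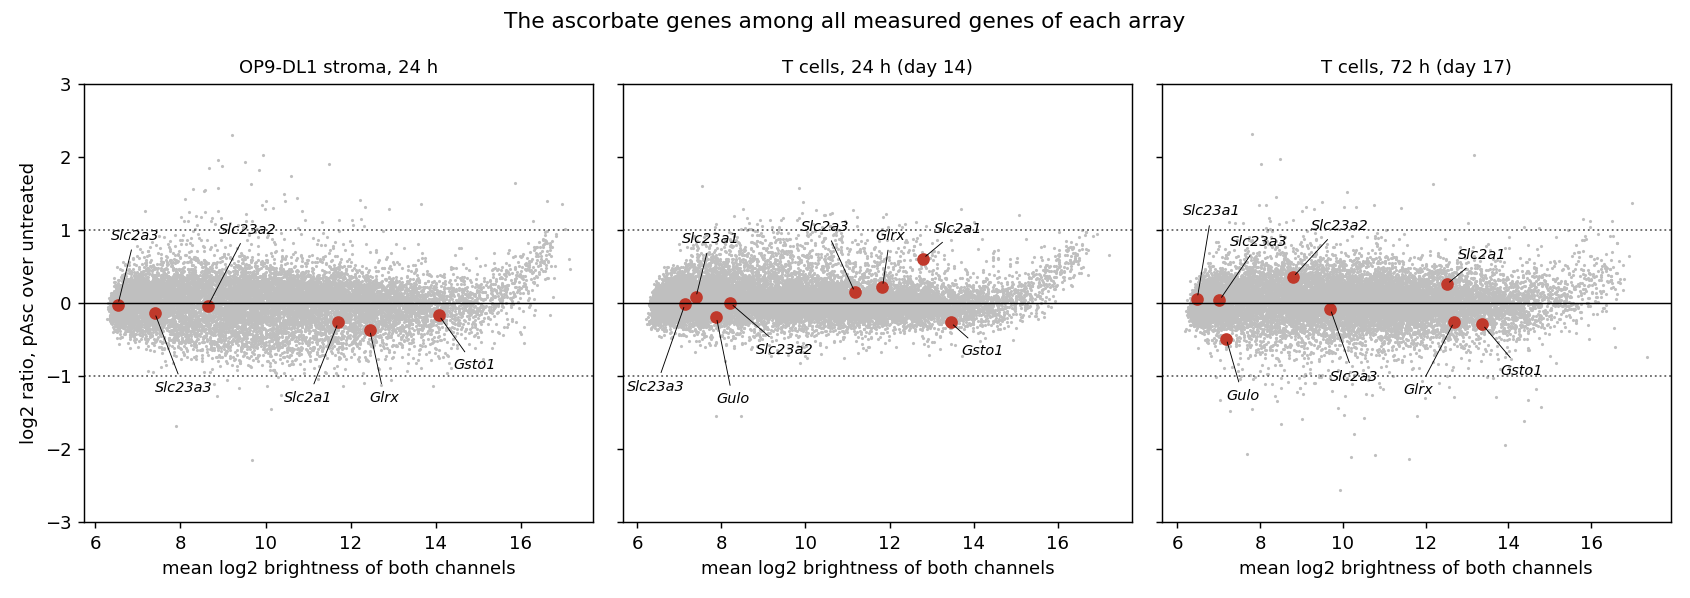
Log2 ratio of pAsc-treated over untreated cells against mean log2 brightness for every gene measured in both channels of an array (grey), with the 8 genes in red where they were measured; dotted lines mark 2-fold. Slc2a1 at 24 h lies near the upper edge of genes of its brightness, and the other points lie within the cloud.

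More of these genes passed 2-fold between cultures than with treatment. Between untreated stroma and untreated T cells of day 14, 3 of 6 measured genes were 2-fold apart, with Slc23a2 and Slc23a3 higher and Slc2a3 lower in stroma, where 40.2% of 13844 genes passed. Against untreated T cells of day 17 it was 2 of 6, Slc23a3 higher and Slc2a3 lower in stroma, where 25.9% of 14053 passed. For untreated T cells of day 17 over day 14 it was 1 of 8, Slc2a3, where 11.4% passed, and for treated ones again Slc2a3 alone, where 12.3% passed. Between treated stroma and treated T cells of day 14, 3 of 7 genes were 2-fold apart, where 40.8% of genes passed. They were Slc23a2, higher by 1.08, Slc2a1, lower by a log2 difference of -1.47, and Slc2a3, lower by -4.40. With Agilent processed signals Slc2a1 was at -0.89 and no longer passed. These shares lie near those of all genes and mark nothing particular to the set. These comparisons share samples with each other. For levels, channels of the same dye on separate arrays were compared.

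For each gene measured in all 6 samples, the 3 genes closest in profile were sought among 13595 genes, by the root mean square difference of log2 levels after centring each gene on its mean. The profile of Slc2a3 was closest to Rnf125 (0.14), Nrip1 (0.22) and Csrnp1 (0.23). Rnf125 stood at 8.55 in treated and 8.62 in untreated stroma, 12.91 in treated and 12.60 in untreated T cells of day 14, and 11.27 in treated and 11.46 in untreated T cells of day 17. The order of cultures is that of Slc2a3, which follows from picking Rnf125 for its likeness over these same samples. For Slc2a1 they were Fam162a (0.091), Jund (0.10) and Lrrn3 (0.11), and for Slc23a2 Maml2 (0.061), Cap1 (0.062) and Cnksr3 (0.065). Slc23a3 was closest to Dnajb12 (0.041), Pkig (0.041) and Clec3b (0.044). Gsto1 was closest to Macrod1 (0.033), Slc35b1 (0.045) and Hsd17b12 (0.046), and Glrx to Hspb11 (0.072), Ldhb (0.079) and Cbr4 (0.082). With 6 samples on 3 arrays, such likeness is a description of these samples.

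Other genes of ascorbate handling were followed in 5 lists, and after loess 0 of their members reached 2-fold with pAsc on any array. Of 122 measured values on the 3 arrays, 5 passed in the ratios deposited by the authors. These were Slc2a6 (1.29) and Slc2a12 (1.27) in stroma, Me1 (1.04) in T cells at 24 h, and Slc2a12 (1.40) and Ggt1 (1.41) in T cells at 72 h. Their loess values were 0.45, 0.66, 0.96, 0.67 and 0.64. The share of all genes past 2-fold in the deposited ratios is not given here, so the count of 5 marks nothing particular to these lists. Of 9 further glucose transporters 7 were measured on each array, with a median log2 ratio of 0.25 in stroma, -0.018 in T cells after 24 h and 0.14 after 72 h. A further 17 genes serve the reduction of oxidised ascorbate. They code for an omega-class glutathione transferase, thioredoxins and their reductases, glutaredoxins, protein disulfide isomerases and proteins of cytochrome b electron transfer. Of these genes 15 were measured in stroma, with a median of 0.10. All 17 were measured in T cells, with medians of -0.0070 after 24 h and 0.0026 after 72 h. The 11 genes of glutathione and NADPH supply, which feed the reductases, had medians of 0.22 over 9 genes in stroma, 0.11 over 10 in T cells at 24 h and 0.37 over 10 at 72 h. At 72 h 9 of those 10 lay above 0, where 51.0% of all measured genes did and their median was 0.0054. Steps of ascorbate synthesis before that of Gulo were measured by 4 genes. The medians were -0.17 in stroma, 0.13 at 24 h and 0.20 at 72 h. Of 4 phosphatases 3 were measured in stroma, with a median of 0.15, and 4 in T cells, with medians of 0.0093 after 24 h and -0.017 after 72 h.

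A few single values of these lists were picked after they had been seen. Me1, the malic enzyme that makes NADPH, had a log2 ratio of 0.96 in T cells after 24 h and 0.48 after 72 h, against 0.038 in stroma. Gsr, glutathione reductase, had 0.28 in T cells at 24 h, 0.62 at 72 h and 0.28 in stroma. Alpl, the alkaline phosphatase that can release ascorbate from its phosphate, had 0.51 at 24 h, 0.78 at 72 h and 0.22 in stroma. Alpl is also an osteoblast marker and stood in the list of those. The summed level of the osteoblast list was 24658 in treated and 11296 in untreated T cells of day 14. It was 69686 in treated and 36087 in untreated T cells of day 17, and 45409 in treated and 46886 in untreated OP9-DL1 cells.

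**Figure D4:**
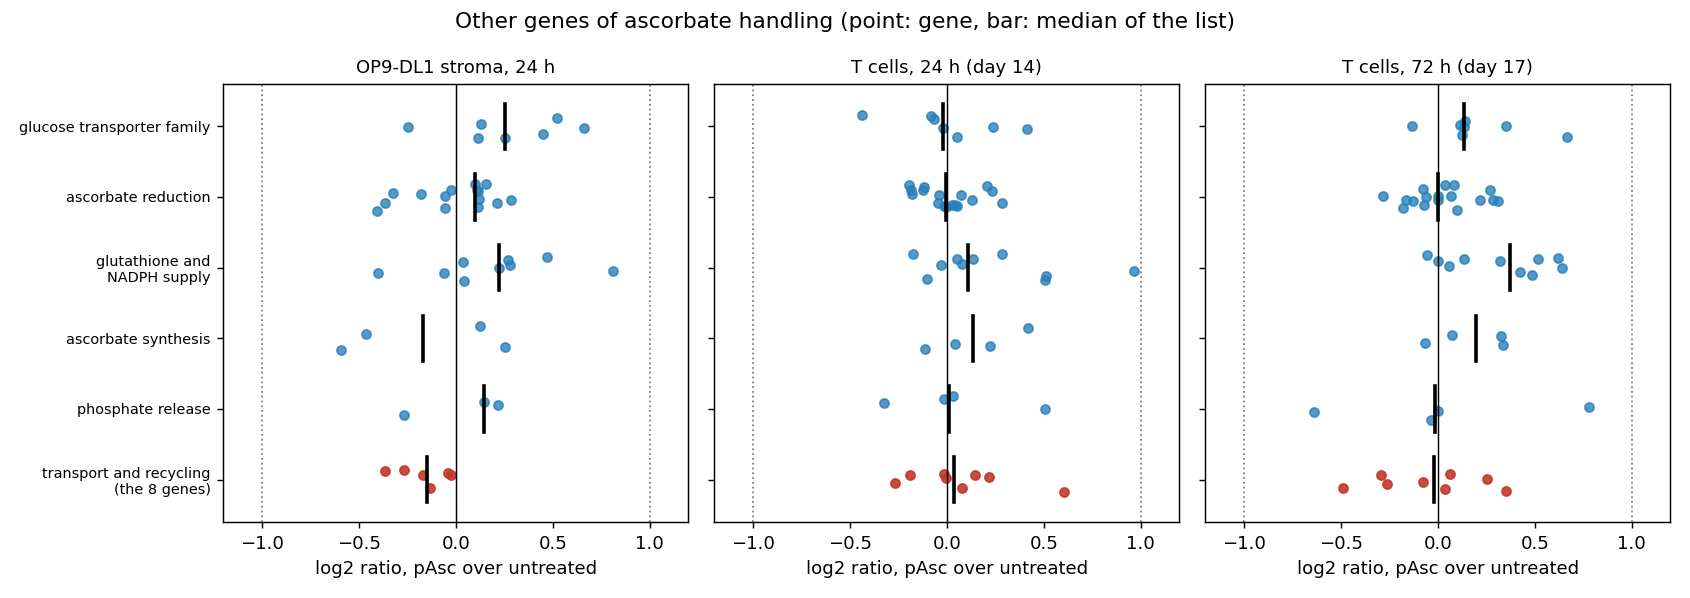
Log2 ratio of pAsc-treated over untreated cells for every measured gene of 5 further lists (blue) and of the 8 genes (red) on the 3 arrays; points are genes, black bars medians and dotted lines 2-fold, and the vertical scatter within a list carries no meaning. No loess value lies past 2-fold, and the genes of glutathione and NADPH supply have a median of 0.37 in T cells at 72 h.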

How the data were processed

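There were 3 arrays, each with untreated RNA in Cy3 and pAsc-treated RNA in Cy5. Spot intensity values were deposited as mean signals and median local backgrounds, not normalized, and as processed signals, per the file headers, by Agilent Feature Extraction 10.5.1.1. The deposited log10 ratio was background-subtracted with detrending and normalized between dyes by a linear and LOWESS step, per the file headers, and is given here on the log2 scale. Flags for outliers and signal above background are also deposited.

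From mean signals and backgrounds, limma 3.58.1 in R 4.3.3 computed log2 ratios after normexp (offset 50) and loess (span 0.3), with control and outlier-flagged spots at weight 0, and channel levels after Aquantile scaling. Normexp and loess were tested on simulated arrays without flagged spots. Aquantile scaling, the averaging of spots and the choice of the brightest probe were not part of that test. The offset pulls ratios of dim probes towards 0. Spots of a probe were averaged and a gene was read by its brightest probe, measured where a share of at least 0.5 of its spots was well above background. Of 41174 probes 25089 were named by accession, 6339 by symbol, 1639 by synonym (RefSeq GRCm38, names only) and 8107 by the files. Per array 117 to 130 of 43379 spots were flagged and 0 saturated. All arrays shared a slide and a scan, so these set no batches apart. A bound takes the higher of the dim probe's own level and the lowest level above background, and is open to dye bias.

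Genes were called at 2-fold. All 8 genes are named, and members of the other lists by a rule of 2-fold or where said. Genes, lists and tests were chosen with earlier results of these data known. The comparison of treated stroma with treated T cells was added after the data were seen. Python 3.11.15 with numpy 2.4.6, pandas 2.3.3 and matplotlib 3.10.9 was used for counts and figures.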

Additional observations from a re-analysis of the deposited data

Results flagged for a closer look

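Slc2a1 and Glrx had log2 ratios of opposite sign on different arrays after loess. With centring on all probes each had 1 sign on all arrays. In stroma, T cells at 24 h and T cells at 72 h, Slc2a1 was at 0.61, 1.21 and 1.03. Glrx was at 0.58, 0.76 and 0.53. That setting put the median of all measured genes at 0.64, 0.41 and 0.54. Slc2a1 and Glrx in stroma and Glrx at 72 h lay below that median, and their other values above it. With 1 array each, none of these differences was tested. The response of Slc2a1 was -0.27 in stroma and 0.61 in T cells at 24 h, a difference of -0.87, and against its 0.25 in T cells at 72 h the difference was -0.52. Glrx stood at -0.36 in stroma and 0.22 in T cells at 24 h, a difference of -0.58. Between 72 h (-0.26) and 24 h (0.22) in T cells Glrx differed by -0.48. All 4 differences are wider than the SD between probes of a gene, at most 0.178, and none reaches 2-fold.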

How the results depend on the processing

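Of 356 values of single genes recomputed under another setting, 250 moved by less than 0.17 on the log2 scale, about the SD between probes of a gene, 105 moved further and 1 turned its sign as a called value. That one was Slc2a3 in untreated T cells of day 17 over day 14, at 0.085 with the median over its 3 probes, of which 2 are near background. Genes with 1 probe (Slc23a2, Slc23a3, Slc2a1, Gsto1 and Glrx) cannot move under the median over probes. Their values in that setting count among the 250 by construction. Median centring on all probes raised the number of the 8 genes past 2-fold to 1, Slc2a1, on both T cell arrays. Agilent processed signals at the 75th percentile gave 5 for untreated stroma over untreated T cells of day 14, 3 and 2 for day 17 over day 14 in treated and untreated T cells, and 5 for treated stroma over treated T cells at 24 h, where Slc2a1 no longer passed. An offset of 0 gave 3 for day 17 over day 14, both treated and untreated, and 5 for treated stroma over treated T cells at 24 h. The median over probes gave 1 for untreated stroma over untreated T cells of day 17 and 0 for day 17 over day 14, both treated and untreated, since the dim probes of Slc2a3 enter it. The cause of the other shifts was not tested. The shares of all genes past 2-fold under these other settings are not given here, so these counts mark nothing particular to the set. The scaling of levels with the processed signals put the median of all genes for untreated stroma over untreated T cells of day 14 at 0.39, against 0.25, and Slc2a1 turned to 0.23 for untreated stroma over untreated T cells of day 17. Ratios of Slc23a1, Slc23a3 and Gulo rest on signals near background. No paired analysis was possible because each group has 1 sample.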
